A study of Mus musculus with 9 samples.

Results

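DEK and the acetylation mark H3K9ac were compared in control haematopoietic stem cells (HSC) of the mouse, by the places where the peak lists of both targets overlap. The members are the regions made by joining the peaks of 3 DEK lists and 1 H3K9ac list on chromosomes 1 to 19 wherever peaks shared at least 1 bp. There are 10878 such regions, made from 11908 of the 60495 autosomal peaks in the 9 lists of the study. Of them 8785 held DEK only, 1674 held H3K9ac only and 419 held both. Where DEK had to be present in at least 2 libraries, 153 regions held both and 318 held DEK only.

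The study mapped chromatin by CUT&Tag, in which an antibody tethers a transposase that cuts and tags the DNA beside its target. The 4 lists come from C57BL/6 mice of 12 weeks with the genotype Dekfl/fl (fl), which carry loxP sites at Dek and no Cre, and about 20000 sorted bone marrow HSC went into each library. A further 5 lists were used only as overlays: H3K9ac in HSC of Dekfl/fl,Tie2-Cre mice (cKO), and H3K27ac and H3K4me3 in fl and cKO LSK cells, the wider stem and progenitor gate (about 50000 cells). Tie2-Cre is driven by a promoter active in endothelial as well as blood-forming cells. The strain and age were the same in all groups. Whether the 3 DEK libraries came from different animals is not stated, so the spread between them may be technical.

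DEK is an abundant non-histone chromatin protein that binds DNA and histones and acts as a histone chaperone. It has been described both as a corepressor found with histone deacetylases and as a factor of heterochromatin, and it is expressed in blood stem cells. H3K9ac, acetylation of lysine 9 of histone H3, is placed by acetyltransferases of the GCN5 and PCAF family and typically marks active promoters and enhancers together with H3K27ac. H3K4me3 marks the promoters of active or poised genes.

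The lists were short and unequal. DEK replicates 1, 2 and 3 held 1962, 2008 and 5839 peaks and the fl H3K9ac list held 2099, covering 0.848, 0.925, 1.64 and 0.534 Mb. The lists give no read counts, so the depth of each library is unknown. The strength of a peak is given here as the authors' fold over background or as −log10 q, the negative logarithm of the adjusted peak p-value, and is used only within a list. DEK replicate 3 stands apart by its length and by the word Flag in its 6160 row names, which the other DEK lists lack. Its antibody is therefore not certain, and the main counts and shares are also given without it. Means, SDs and permutation tests with n = 3 include replicate 3. Its row names have the stem Flag-2.rmdup, those of the fl H3K9ac list H3K9-2.rmdup and those of the cKO H3K9ac list H3K9-3.rmdup. In DEK replicates 1 and 2 the stem ends in Filtered2 instead. A shared preparation or processing of the lists named rmdup therefore cannot be told apart from shared places. None of the 9 HSC marker genes (Kit, Ly6a, Procr, Slamf1, Mecom, Hlf, Meis1, Fgd5 and Hoxb5) had a fl H3K9ac peak at an end, while 5 of 9 had a fl H3K4me3 peak in LSK cells. The myeloid (5 genes), lymphoid (4), erythroid and megakaryocyte (4), endothelial (3) and stromal (3) markers had 0 as well, so the H3K9ac list does not tell these cell types apart.

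Letters under these regions could be read only where a region met a promoter window of RefSeq (GRCm38.p6, the mm10 coordinates), which runs from 250 bases before to 50 after an annotated start. Windows that lie under regions with both targets, or under DEK-only regions of at least 2 libraries, were few: 3 and 3 of 31396. Of the 6, 4 were picked to be shown because repeated units fill the stretch below the peaks in most of these 4. In the first pair, at the long noncoding RNA genes Gm40237 (chr4:118547156-118547455, plus strand) and Gm39226 (chr8:94099292-94099591, plus strand), capitals mark the bases covered by both a DEK and the H3K9ac peak.
Gm40237: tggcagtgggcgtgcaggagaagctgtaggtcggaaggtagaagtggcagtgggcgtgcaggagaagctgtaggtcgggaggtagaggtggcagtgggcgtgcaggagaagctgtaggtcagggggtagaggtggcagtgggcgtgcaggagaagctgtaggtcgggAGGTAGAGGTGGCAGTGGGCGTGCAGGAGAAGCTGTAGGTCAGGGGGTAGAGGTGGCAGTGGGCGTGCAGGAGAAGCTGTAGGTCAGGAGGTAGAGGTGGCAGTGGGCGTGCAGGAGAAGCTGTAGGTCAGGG
Gm39226: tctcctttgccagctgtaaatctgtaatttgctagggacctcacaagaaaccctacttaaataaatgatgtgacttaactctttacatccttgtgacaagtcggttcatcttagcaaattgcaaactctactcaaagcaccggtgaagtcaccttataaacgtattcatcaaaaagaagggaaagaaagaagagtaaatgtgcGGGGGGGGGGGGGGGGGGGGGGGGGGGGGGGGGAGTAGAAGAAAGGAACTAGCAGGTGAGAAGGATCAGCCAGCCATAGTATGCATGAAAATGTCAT

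The next pair lies under DEK peaks with no H3K9ac peak, at the long noncoding RNA genes Gm36734 (chr13:71020372-71020671, minus strand) and Gm38814 (chr6:53493287-53493586, plus strand), and capitals mark the bases covered by DEK.
Gm36734: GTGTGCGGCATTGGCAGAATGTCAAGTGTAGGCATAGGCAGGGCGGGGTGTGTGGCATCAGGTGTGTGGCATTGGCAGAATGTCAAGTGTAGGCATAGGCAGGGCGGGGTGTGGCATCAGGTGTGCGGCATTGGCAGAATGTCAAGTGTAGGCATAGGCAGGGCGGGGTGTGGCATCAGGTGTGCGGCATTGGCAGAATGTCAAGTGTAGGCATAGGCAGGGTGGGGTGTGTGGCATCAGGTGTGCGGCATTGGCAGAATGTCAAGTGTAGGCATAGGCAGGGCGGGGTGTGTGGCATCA
Gm38814: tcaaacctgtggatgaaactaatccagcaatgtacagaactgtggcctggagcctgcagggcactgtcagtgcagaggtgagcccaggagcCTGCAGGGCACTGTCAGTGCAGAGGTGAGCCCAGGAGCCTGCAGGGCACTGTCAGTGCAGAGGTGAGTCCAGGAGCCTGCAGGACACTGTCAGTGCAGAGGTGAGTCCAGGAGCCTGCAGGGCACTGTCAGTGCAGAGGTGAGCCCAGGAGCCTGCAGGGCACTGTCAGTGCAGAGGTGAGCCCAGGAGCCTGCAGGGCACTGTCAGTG

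The Gm40237 window is a tandem repeat: shifted by 88 bases it matched itself at 97.6% of positions. The Gm38814 window matched itself at 87.0% with a shift of 38 bases, and Gm36734 at 63.2% with a shift of 61 bases, its copies being of unequal length. Over shifts of 10 to 100 bases, 16 of all 31396 windows (0.0510%) matched at 80% or more, so such windows are rare among promoters. Under regions with both 1 of 3 windows did, and under DEK-only regions of at least 2 libraries 1 of 3. Under DEK-only regions of any library 2 of 63 windows did (3.17%), and under H3K9ac-only regions 0 of 41 (exact interval 0 to 8.60). The Gm39226 window has no such tandem match (35.3%) and carries a run of 33 G, where 1.37% of all windows hold a run of a unit of 1 to 3 bases over at least 20 bases. The windows not shown, at Polr3gl and LOC115487747, matched themselves at 32.2% and 31.4%, and their longest runs were 4 and 10 bases. This measure was chosen after the letters had been seen, the windows are few, and how reads were placed on repeated sequence was not tested.

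The region over Gm40237 (chr4:118547222-118548714, 1493 bp) was strong in every list. Its DEK folds were 15.9, 11.2 and 20.9 in replicates 1 to 3 and its H3K9ac fold was 8.50, and it also held cKO H3K9ac and fl H3K27ac peaks. The Gm36734 region had DEK folds of 9.68, 5.75 and 10.3 and none of the 3 other fl or cKO peaks looked at (cKO H3K9ac, fl H3K27ac, fl H3K4me3). Over Gm39226, DEK came from replicate 3 alone (fold 4.47) beside an H3K9ac fold of 7.19. The same region counts as a gene end of Bbs2, a gene of the primary cilium that lies beside it.

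The extent of overlap depended on which list was read and on how many DEK libraries held the region. Of the 2093 H3K9ac regions, 20.0% held DEK of any library (95% exact Clopper-Pearson interval 18.3 to 21.8) and 7.31% held DEK of at least 2 (6.23 to 8.51). Of the 9204 DEK regions of any library, 4.55% held H3K9ac (4.14 to 5). Such intervals cover counting error only, since regions are not replicates. Per library, 7.34%, 6.62% and 6.32% of DEK peaks overlapped an H3K9ac peak (mean 6.76% ± 0.524, SD, n = 3). The libraries thus differed little although replicate 3 was much longer. All 3 were set against the same H3K9ac list, so the SD covers no spread between H3K9ac libraries. Read from the H3K9ac side, 7.05%, 6.43% and 17.8% of its peaks overlapped replicates 1, 2 and 3. With each DEK list reduced to its 1962 strongest peaks these shares were 7.05%, 6.38% and 14.5%, so replicate 3 met more of the H3K9ac list at equal length too. Without replicate 3, 192 regions held both targets in place of 419, and 9.16% of H3K9ac regions held DEK. For at least 2 libraries, 85 regions were left in place of 153.

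Regions that more DEK libraries held were more often H3K9ac regions. The share with H3K9ac was 3.05% (2.70 to 3.43) for DEK in exactly 1 library, 21.2% (17.0 to 25.9) for 2 and 64.8% (55.6 to 73.2) for all 3, or 79 of 122 regions. For at least 2 libraries it was 32.5% (28.3 to 36.9). Every pair of libraries lay between: 5 of 40 regions of replicates 1 and 2 alone (12.5%), 45 of 154 of replicates 1 and 3 (29.2%) and 24 of 155 of replicates 2 and 3 (15.5%). Regions of 1 library gave 1.10%, 1.54% and 4.11%. Without replicate 3 the order was kept, at 2.94% for 1 library and 52.5% for the 2 remaining ones. The plot by DEK replicate shows these steps. With 1 H3K9ac library no test across H3K9ac replicates can be made.

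**Figure D1:**
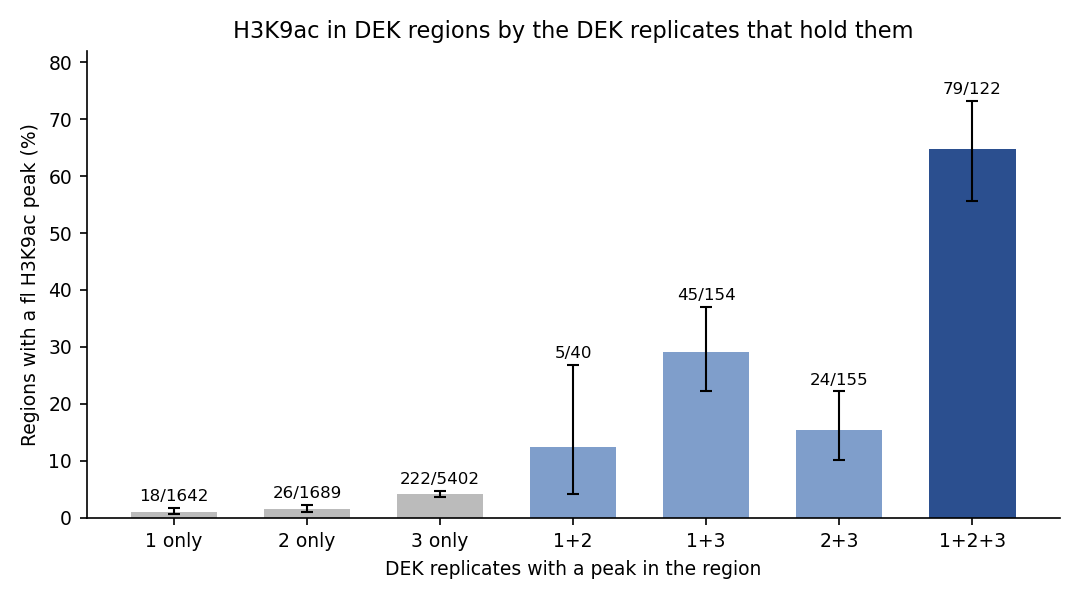
Share of DEK regions with a fl H3K9ac peak (%, bars, with exact 95% intervals) by the DEK replicates that hold the region, with counts above. Regions of a single replicate lie at 1.10% to 4.11%, those of 2 replicates at 12.5% to 29.2% and those of all 3 at 64.8%.

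The overlap sat at the strong end of every list. The 20 strongest peaks of each DEK list all overlapped an H3K9ac peak, and the 20 strongest H3K9ac peaks all overlapped DEK of any library. Of these 20 H3K9ac peaks, 13 lay in regions with DEK in at least 2 libraries. The first peak without the other target stood at rank 29, 30 and 35 in the DEK lists and at rank 30 in the H3K9ac list. In the strongest 10% of each list 40.8%, 43% and 31.7% of DEK peaks and 65.6% of H3K9ac peaks overlapped. In the weakest 10% the shares were 0.508%, 0.995%, 0.685% and 2.86%. Peaks of equal −log10 p were ordered by position, so the order among weak peaks is in part arbitrary. In the H3K9ac list, −log10 q was 1.64 throughout rank classes 7, 8 and 9 of 10, and 1.61 to 1.64 in class 10. With DEK in at least 2 libraries, the H3K9ac share was 33.0% in the strongest 10% and 0.952% in the weakest. The H3K9ac shares by rank were not recomputed without replicate 3. Among H3K9ac peaks with −log10 q of at least 5, 249 of 497 (50.1%, 45.6 to 54.6) overlapped DEK of any library. DEK peaks of that strength overlapped H3K9ac at 20.4%, 16.9% and 14.1%. The plot by rank shows the fall from the strong to the weak end.

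**Figure D2:**
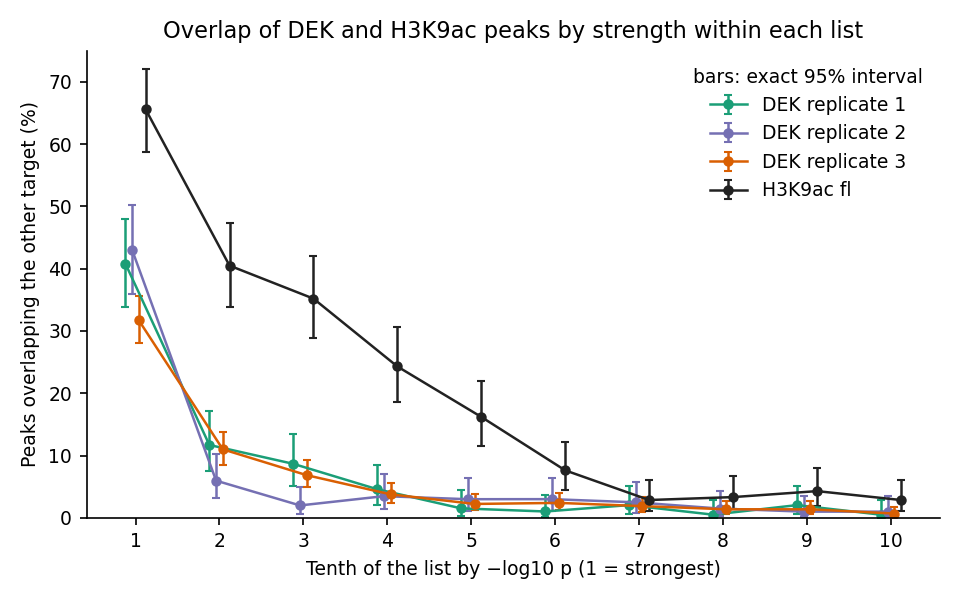
Share of peaks that overlap the other target (%, points, with exact 95% intervals) by rank class of each list (10 classes of equal size), ordered by −log10 p from strongest (1) to weakest (10). Equal values are ordered by position, so the weak classes are in part arbitrary. The H3K9ac list, where DEK of any library counts, falls from 65.6% to 2.86%. The DEK lists fall from 31.7% to 43% down to under 1%.

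Rank and width by class followed this. DEK peaks with H3K9ac had a median rank of 7.16%, 4.93% and 9.71% of the list in replicates 1 to 3 (0% is the strongest), against 53.1%, 52.6% and 52.5% for those without. The difference was −45.5 percentage points ± 2.46 (SD, n = 3), in the same direction in 3 of 3 libraries. The exact two-sided sign-flip permutation test gave p = 0.25, the smallest that 3 libraries allow. Median fold was 8.58, 9.08 and 8.98 with H3K9ac and 4.96, 4.94 and 5.10 without, a difference of 3.89 ± 0.262 (SD, n = 3) with the same exact p = 0.25. DEK peaks with H3K9ac were also wider, at a median of 482, 521 and 397 bp against 378, 408 and 222 bp, by 131 bp ± 38.5 (SD, n = 3, exact permutation p = 0.25).

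In the H3K9ac list the contrast was in the same direction. H3K9ac-only peaks had a median rank of 58.8%, fold of 2.91, −log10 q of 1.64 and width of 186 bp. Many H3K9ac peaks share this −log10 q, so ranks from about this median down separate them little. Peaks that met DEK of any library had 19%, 6.33, 6.23 and 310 bp, and those that met DEK in all 3 had 5.96%, 8.47, 16.9 and 459 bp. Without DEK replicate 3, the peaks that met DEK of any library had a median rank of 14.3%. A wider peak has more bases with which to meet another, and the part of width in the overlap was not tested. DEK peaks in regions of all 3 libraries ranked high with and without H3K9ac. All DEK peaks outside regions with both had median ranks of 53.2%, 52.7% and 52.5% in replicates 1 to 3. How rank, number of libraries and H3K9ac depend on each other was not tested. Among regions of all 3 libraries, the peaks with H3K9ac had median ranks of 2.37%, 2.12% and 0.993%, and the peaks without it 11%, 9.81% and 5.15%.

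**Figure D3:**
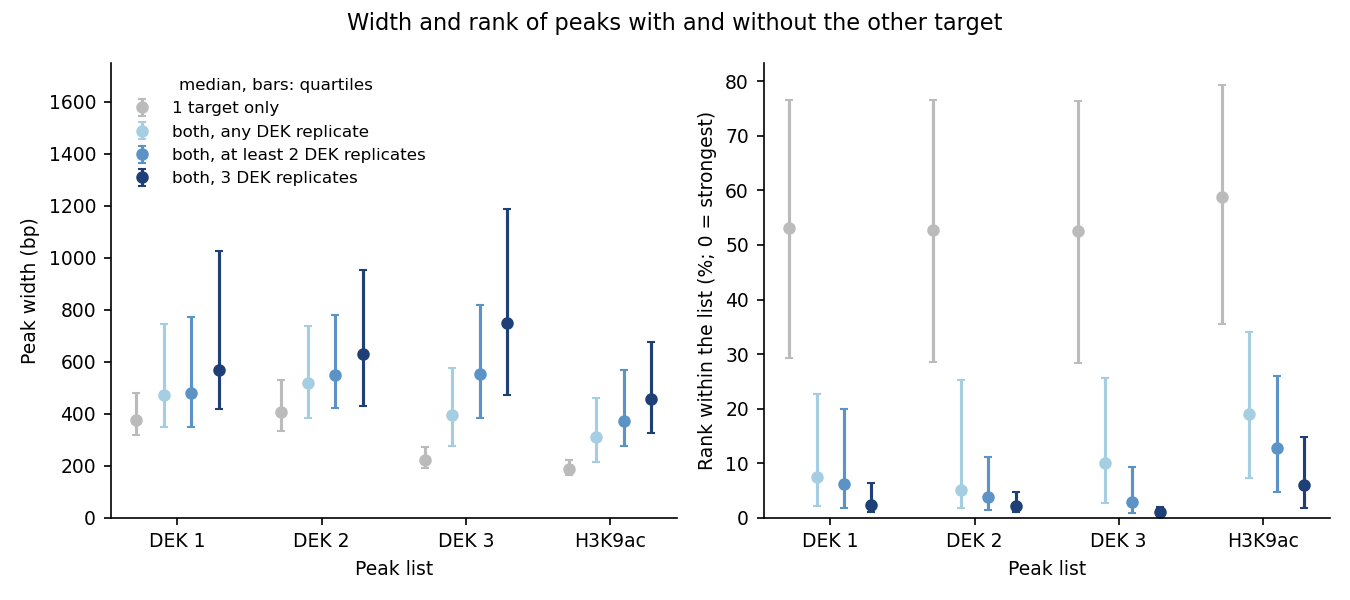
Peak width (bp, left) and rank within the list (%, right, 0 strongest) for the 3 DEK lists and the H3K9ac list, as medians with quartiles, for peaks without the other target and for 3 nested classes with both. Median ranks lie at 52.5% to 58.8% for peaks of 1 target and at 19% or below for peaks with both.

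As joined regions, DEK-only regions of any library had a median width of 282 bp (order-statistic 95% interval 279 to 286) and H3K9ac-only regions 186 bp (184 to 188). Regions with both measured 493 bp (470 to 521), and 668 bp for at least 2 DEK libraries (590 to 741). DEK-only regions of at least 2 libraries measured 595 bp (563 to 622). Without DEK replicate 3, regions with both measured 592 bp (542 to 644). A joined region is at least as wide as its widest peak, so widths of regions with several peaks are larger by construction.

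Overlapping peaks lay closely on each other. There were 148, 136 and 375 pairs of a DEK and an H3K9ac peak in replicates 1 to 3. The summits of a pair were a median of 72, 122 and 80 bp apart. In 91.9%, 88.2% and 92.8% of pairs the overlap covered at least 50% of the shorter peak. The DEK peak was the wider one in 70.3%, 68.4% and 71.7% of pairs. In 8 pairs the 2 peaks had the same start and the same end, for example chr19:61331278-61331562 in replicate 3 and H3K9ac, a region beyond the nearest gene Csf2ra by 103 kb. Across pairs, strong DEK peaks met strong H3K9ac peaks, with Spearman's rho of −log10 p of 0.684, 0.566 and 0.531. These are descriptions over peaks of the same libraries, which are not independent, and carry no p-value.

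**Figure D4:**
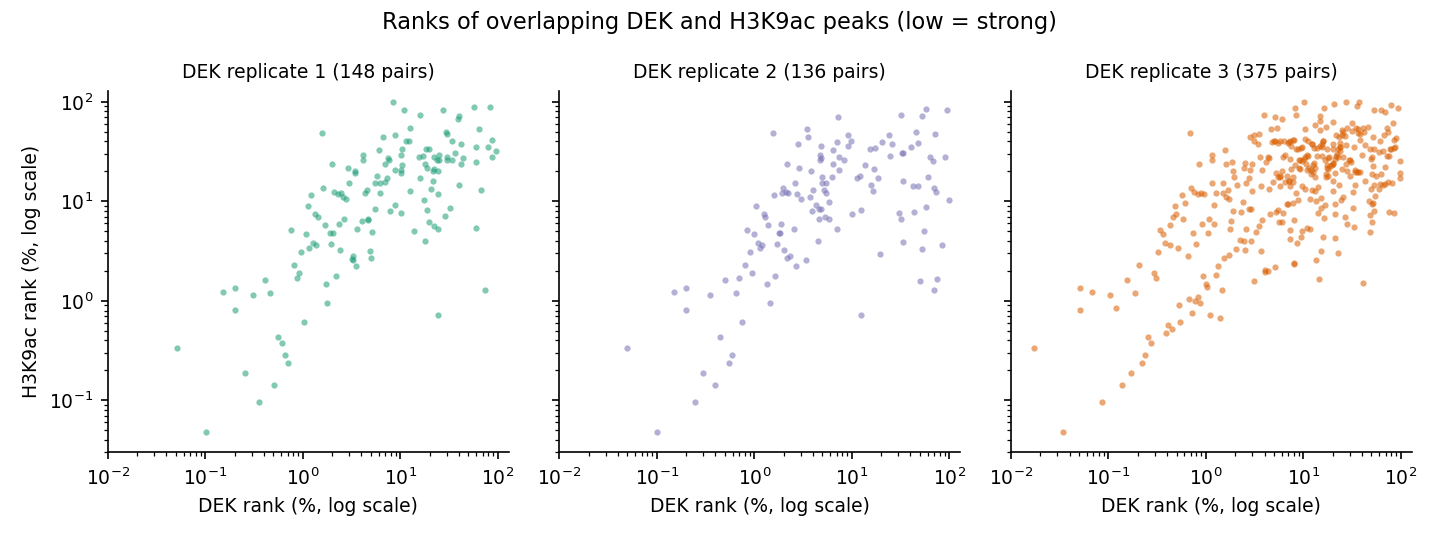
Rank of the DEK peak (%, x axis) against rank of the H3K9ac peak (%, y axis) on log scales for every overlapping pair, by DEK replicate (148, 136 and 375 pairs). The strongest peaks of both lists form a band at the lower left, and weaker pairs scatter.

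The strongest regions with both were taken from those with DEK in at least 2 libraries, so recurrence among the DEK lists was part of the choice. Most lay outside protein-coding genes. The first by mean rank, chr14:124801559-124802243, lay 124 kb from Fgf14, a gene for an intracellular regulator of sodium channels. It ranked 2, 2 and 2 in the DEK lists and 1 in the H3K9ac list, with folds of 22.4, 22.7, 36.8 and 42.3. The second, chr2:98666253-98667329, ranked 1, 1, 1 and 7, with folds of 18.0, 18.2, 26.2 and 28.2. It lay 1035 kb from its nearest gene, Lrrc4c, which encodes a synaptic adhesion protein, so the nearest gene says little about the place. The region chr7:145340928-145341456, 16868 bp from the receptor gene Mrgprd, ranked 7, 5, 5 and 2. The region chr12:120028663-120029020, 7420 bp from Tmem196, ranked 5, 6, 10 and 4. All 4 also held peaks in the cKO H3K9ac list and in the fl and cKO H3K27ac lists, and none held a fl H3K4me3 peak.

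Inside genes, the strongest by mean rank among those with DEK in at least 2 libraries was chr6:103649048-103649339 within Chl1, a neural cell adhesion gene. It had DEK folds of 33.6, 31.8 and 50.9 and an H3K9ac fold of 32.9. Of the 153 regions with both and at least 2 DEK libraries, 13 lay within 10 kb of another. At the lowest coordinates of chromosome 9, 11 of them stood within 35.4 kb (chr9:3000118-3035473), and Alkbh8, which encodes a tRNA modification enzyme, was the nearest gene of all 11. Leaving this stretch out, an alternative chosen after seeing the data, changed the share of such DEK regions with H3K9ac from 32.5% to 30.9%.

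Regions of all 3 DEK libraries were also counted near the chromosome ends. Mouse chromosomes have their centromere at the end where coordinates begin. Within 1 Mb of the lowest peak of a chromosome lay 16 of the 79 regions of H3K9ac and all 3 DEK libraries (20.3%, 12.0 to 30.8), and 11 of the 16 were the chromosome 9 group. Without that stretch, an alternative chosen after seeing the data, 5 of 68 did (7.35%, 2.43 to 16.3). For DEK in all 3 libraries without H3K9ac the count was 11 of 43 (25.6%, 13.5 to 41.2), and 10 of 42 without the stretch (23.8%, 12.1 to 39.5). With DEK replicates 1 and 2 alone, 17 of 85 regions with both libraries and H3K9ac lay there (20%, 12.1 to 30.1). Only 1.14% of H3K9ac-only regions (0.685 to 1.77) and 1.10% of DEK-only regions of 1 library (0.887 to 1.34) lay there. Within 1 Mb of the far end lay 13.9% of the regions with both and all 3 DEK libraries (7.16 to 23.5) and 0 of the 43 DEK-only ones (0 to 8.22). For at least 2 DEK libraries the counts there were 12 of 153 with both (7.84%, 4.12 to 13.3) and 0 of 318 DEK-only (0 to 1.15). With DEK replicates 1 and 2 alone they were 11 of 85 (12.9%, 6.64 to 22.0) and 0 of 77 (0 to 4.68).

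Few regions of any class lay at gene ends, the 1 kb on either side of an annotated end of a protein-coding gene. The share of the genome within these windows was not computed, so no single share shows enrichment or depletion. The share was 2.61% for DEK only (2.28 to 2.96), 6.57% for H3K9ac only (5.43 to 7.87), 3.34% for both with any DEK library (1.84 to 5.54) and 2.61% for both with at least 2 (0.717 to 6.56). The H3K9ac-only share was the highest of the 4. It stayed above the share for both in each alternative setting except −log10 q of at least 5 in every list. In that setting it was 3.56% (1.72 to 6.45), against 3.76% for both (1.64 to 7.27). Per DEK library, 2.78%, 3.76% and 2.71% of peaks with H3K9ac and 2.86%, 2.99% and 2.36% of peaks without it lay at gene ends (difference 0.347 percentage points ± 0.428, SD, n = 3, exact sign-flip permutation p = 0.500). This difference was smaller than its spread.

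The share outside protein-coding genes differed between classes, while the share of the genome outside these genes was not computed. It was 56.9% for DEK only (55.8 to 57.9), 45.0% for H3K9ac only (42.6 to 47.4) and 53.0% for both (48.1 to 57.8). It was 66.0% for both with at least 2 DEK libraries (57.9 to 73.5) and 73.4% with all 3 (62.3 to 82.7). For DEK in all 3 libraries without H3K9ac it was 69.8% (53.9 to 82.8). With noncoding genes counted as genes too, the shares were 46.9% for DEK only, 35.7% for H3K9ac only, 44.9% for both, 59.5% for both with all 3 DEK libraries and 48.8% for DEK only in all 3. Without DEK replicate 3, 71.8% of regions with H3K9ac and both remaining libraries lay outside protein-coding genes (61.0 to 81.0). Outside genes, the median distance to the nearest protein-coding gene was 76.4 kb for DEK only, 33.7 kb for H3K9ac only and 47.7 kb for both.

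The other lists split the classes further. A cKO H3K9ac peak lay in 3.88% of DEK-only regions of any library (3.49 to 4.31) and in 4.06% of H3K9ac-only regions (3.17 to 5.12). Among DEK-only regions the share was 19.5% for at least 2 libraries (15.3 to 24.3) and 37.2% for all 3 (23.0 to 53.3), so it rose with the number of DEK libraries without fl H3K9ac as well. It lay in 58.5% of regions with both (53.6 to 63.2), in 83.0% for at least 2 DEK libraries (76.1 to 88.6) and in 76 of 79 for all 3 (96.2%, 89.3 to 99.2). Without DEK replicate 3 it lay in 91.8% of regions with H3K9ac and both remaining libraries (83.8 to 96.6), and in 27.3% of those without H3K9ac (17.7 to 38.6). Fl H3K9ac regions that also held a cKO peak were thus 245 with DEK and 68 without. Of the 153 regions with both and at least 2 libraries, the 26 with no cKO peak had a median fl H3K9ac rank of 23.8%, against 11% for the 127 with one. DEK peaks themselves overlapped the cKO list at 9.58%, 8.22% and 8.72% (mean 8.84% ± 0.691, SD, n = 3), above the 6.76% with the fl list in each library. With the cKO list cut to the number of peaks of the fl list the mean was 8.72% ± 0.729, so the order was the same at equal number. Peaks of the full cKO list were wider (median 224 bp against 194 bp in fl), and the part of width was not tested. The same fl DEK peaks enter both values, and each genotype has 1 H3K9ac library, so no test was made.

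H3K27ac was measured in LSK cells. A fl H3K27ac peak lay in 5.32% of DEK-only regions of any library, 2.39% of H3K9ac-only regions and 19.8% of regions with both (16.1 to 24.0). DEK-only regions of at least 2 libraries (19.5%, 15.3 to 24.3) and of all 3 (18.6%, 8.39 to 33.4) were at the level of the last. Regions with both stood at 31.4% for at least 2 DEK libraries (24.1 to 39.4) and 50.6% for all 3 (39.1 to 62.1). Without DEK replicate 3 the share was 47.1% for H3K9ac with both remaining libraries (36.1 to 58.2). All 3 other acetylation lists met in 48.1% of the regions with both and all 3 DEK libraries. H3K4me3 was rare: its fl peaks lay in 0.955% of regions with both (0.261 to 2.43) and in 3.29% of H3K9ac-only regions (2.48 to 4.26). No control library without a specific antibody and no list of places to be excluded for their signal in any library was used here, so antibody-specific signal and signal common to all libraries cannot be told apart.

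**Figure D5:**
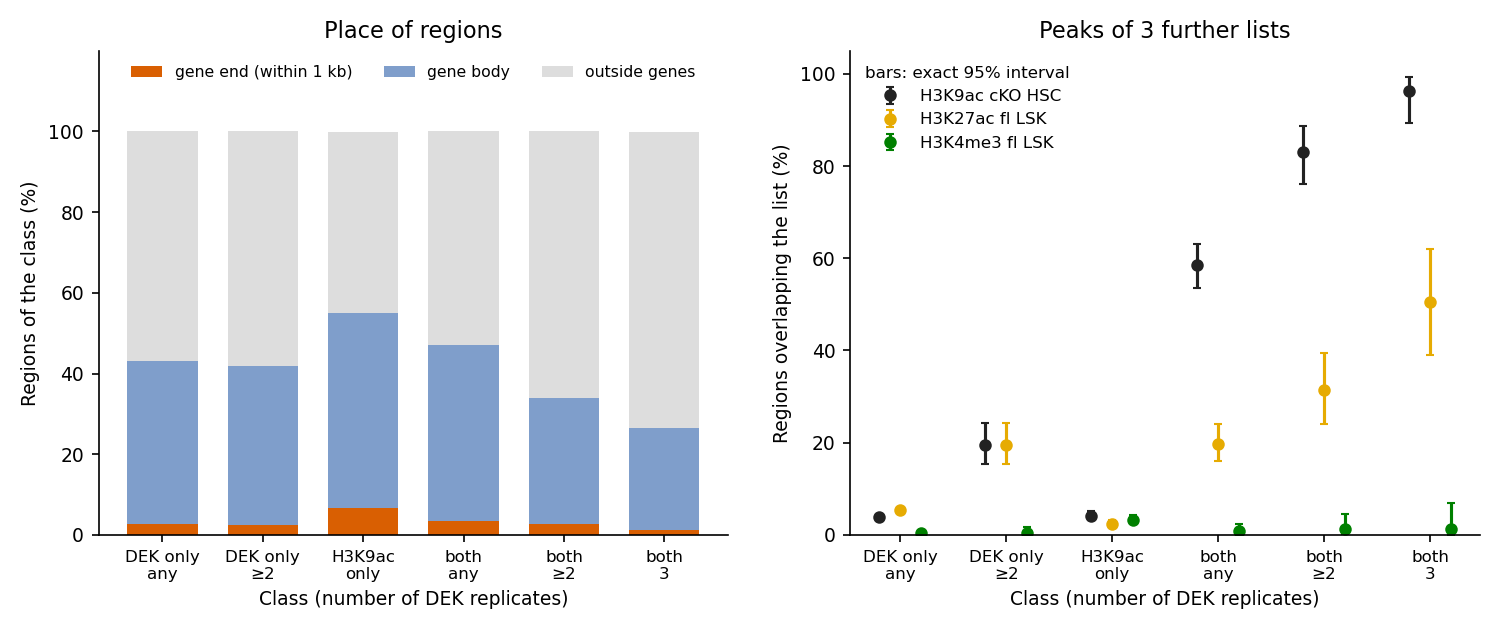
Left, place of the regions of each class (% of the class at a gene end, in a gene body or outside genes). Right, share of each class (%, points with exact 95% intervals) that overlaps the cKO H3K9ac list of HSC and the fl H3K27ac and H3K4me3 lists of LSK cells. The cKO H3K9ac share is 3.88% in DEK-only regions of any library, 19.5% in those of at least 2, 83.0% in regions with both and at least 2 DEK libraries and 96.2% with all 3, while H3K4me3 stays at or below 3.29%.

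Of 20665 autosomal protein-coding genes, 251 had an end at DEK of any library (1.21%) and 12 at DEK of at least 2 (0.0581%). An H3K9ac peak lay at an end of 140 (0.677%), a region with both and any DEK library at 15 (0.0726%), and one with both and at least 2 at 5 (0.0242%). Of these 5, 3 are described here. Wls, which encodes the carrier that takes Wnt proteins to the cell surface, had the strongest, 738 bp beyond an end (chr3:159939405-159939679). Its DEK folds were 27.9 in replicate 1 and 42.9 in replicate 3, with no peak in replicate 2, and its H3K9ac fold was 45.6. Mfap2, a gene for a microfibril protein, was the 1 gene with DEK in all 3 libraries, with DEK folds of 12.1, 13.4 and 17.0 and an H3K9ac fold of 7.14. Its region is chr4:141009166-141009650, 773 bp from an end. Crebzf, a leucine-zipper transcription regulator, had DEK folds of 7.12 and 6.85 in replicates 1 and 3 and an H3K9ac fold of 5.22. Without DEK replicate 3, only Mfap2 of these 3 has DEK in 2 libraries.

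At further ends DEK came from 1 library. By H3K9ac rank these began with Gm46965 (DEK fold 11.9 in replicate 2, H3K9ac fold 11.3), Slc44a3, a choline transporter-like gene (8.10 in replicate 3, 9.56), Npffr2, a neuropeptide receptor gene (8.10 in replicate 3, 8.47), and Lypd4 (13.2 in replicate 2, 8.06). Gm48175 had 11.6 in replicate 3 and 7.62. Them7 had 8.56 in replicate 3 and 6.86, and Ostn, a muscle and bone peptide gene, had 5.76 in replicate 2 and 4.72.

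DEK-only ends of at least 2 libraries belonged to 7 genes. Gm32584 had DEK in all 3 libraries at both of its ends, with folds of 14.5, 11.7 and 14.0 at one and 9.33, 8.75 and 17.6 at the other. Vmn2r2, a pheromone receptor gene, had folds of 9.75, 4.78 and 6.82. Gp9, a platelet glycoprotein gene, had 17.9 and 6.31 in replicates 2 and 3, and Ifi44l, an interferon-induced gene, 8.71 and 7.48 in the same libraries. Abcc2, an export pump gene, Cd8b1, a T cell coreceptor gene, and Cacfd1 had folds of 3.58 to 6.61 in replicates 1 and 3.

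H3K9ac-only ends were led by Zcchc24, a zinc finger gene, with a fold of 15.4. Gm36028 (9.56), Rapsn (8.26), which encodes a clustering protein of acetylcholine receptors, and Elmod3 (8.16) followed. Ankdd1a and Spg21 share a peak of fold 7.14. Scn9a, a sodium channel gene of sensory neurons, had 7.05 and Zfp39 6.33.

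The 14 gene lists cover blood lineages, cell cycle, AKT and mTOR signalling, chromatin, ribosomal proteins and other tissues. Of 259 list genes found, 0 had a region with both at an end, 9 had DEK of any library, 1 (Gp9) had DEK of at least 2 and 2 had H3K9ac. The shares over all genes are 0.0726%, 1.21%, 0.0581% and 0.677%, so a count of 0 for both says nothing particular about the lists. The H3K9ac genes were Lyl1, a transcription factor gene of blood stem cells, and Cdkn2c, which encodes the cell cycle brake p18. Both peaks were weak, with a fold of 2.91 and −log10 q of 1.64, and neither was left at −log10 q of at least 5. The list of H3K9 acetylation writers, erasers and readers (22 genes found) and that of DEK partners and histone chaperones (20) had 0 genes with either target at an end.

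Within the span of a gene, regions with both lay in 4 of the 259 list genes, against 189 of all 20665 genes (0.915%). The count is small and was not tested against that share. Cdk6, a kinase that drives stem cells out of dormancy, held chr5:3479778-3480408 with DEK folds of 10.7 and 9.65 in replicates 1 and 3 and an H3K9ac fold of 5.93. Myb, a transcription factor gene of blood progenitors, held DEK in replicate 3 (fold 9.46) with an H3K9ac fold of 5.43. Mecom, a regulator of stem cell self-renewal, held DEK in replicate 3 (4.47) with 7.14. Flt1, an endothelial receptor gene, held the strongest (46.4 in replicate 3, 36.9). The last 3 rest on replicate 3 alone.

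The 6 study genes, chosen from what is known of the study (Akt1, Akt2, Ccnb2, Cdkn1a, Dek and Ncor1), had 0 fl H3K9ac peaks within 1 kb of the gene, so none held both. Ccnb2, the cyclin B2 gene, had a DEK peak in replicate 3 at one end (fold 3.58, 1233 bp wide), where the other peaks of like strength had a median width of 212 bp. Cdkn1a, the gene of the inhibitor p21, had one inside the gene in replicate 3 (fold 5.04, 1193 bp, against 218 bp). Akt1 and Akt2 count here as DEK genes of replicate 3 through 2 entries whose score does not follow 10 times their −log10 p as the other scores do. These entries are 1248 and 1871 bp wide, where other peaks of like strength had median widths of 232 and 214 bp. The Akt1 entry recurs with the same start and end in replicates 1 and 2, and the Akt2 entry in replicate 1. The 7 entries that lack a dot in the strand column, among them further ones at Akt1 and Akt2, were left out by the rule. The nearest fl H3K9ac peak was 3.40 kb from Cdkn1a, 64.6 kb from Akt1, 202 kb from Akt2, 202 kb from Ccnb2, 282 kb from Ncor1 and 1661 kb from Dek.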

How the data were processed

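CUT&Tag libraries were made for 9 samples, of which 4 lists carry the comparison (DEK in 3 libraries and H3K9ac in 1, all fl HSC). The tools were Bowtie2, MACS2 and Picard and the build was mm10, per the submitters' processing notes. For versions, control tracks, thresholds, duplicates and repeated reads, the sources used here give nothing. The authors deposited 1 narrowPeak list per sample, so peaks were called per sample. The deposited score is, as the values show, 10 times the −log10 p as a whole number. Each peak's fold (a ratio over background), p-value and q-value, the last 2 as −log10, were deposited by the authors and were used within a list only. A longer list can come from deeper sequencing as well as from more places.

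Entries with a dot in column 6 on chromosomes 1 to 19 were kept. Peaks sharing at least 1 bp were joined into regions, directly or through another peak. Coordinates are mm10, counted from 1. Ranks follow −log10 p, with equal values ordered by position. Genes came from RefSeq (GRCm38.p6), whose table gives no strand, so a gene end can be a start or a 3′ end. Sequences are RefSeq promoter windows. No genome was used here, so letters of other regions are not shown. Per-library differences were tested by exact two-sided sign-flip permutation over the 3 DEK libraries. Python 3.11.15, pandas 2.3.3, numpy 2.4.6 and scipy 1.17.1 were used, and joining was tested on simulated peaks and against bedtools 2.31.1. Named genes were 6 study genes and all genes at regions with both and at least 2 DEK libraries. Up to 12 at regions with both were taken by H3K9ac rank. Genes nearest to the 15 strongest regions with both and at least 2 DEK libraries were taken in part. Up to 8 per single-target class and list genes with a peak were named too. One result under this rule is not reported here. The members, gene lists and tests were chosen with earlier results of these data known. Alternatives covered the overlap required, −log10 q, list length, entries, chromosomes, each DEK library left out, and the gene-end rule.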

Additional observations from a re-analysis of the deposited data

Results flagged for a closer look

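Signal appeared on chromosomes that the comparison leaves out. On the X chromosome 16 regions held both DEK and H3K9ac, 5 of them with DEK in at least 2 libraries, among 467 DEK and 62 H3K9ac regions. The DEK lists also held 5, 4 and 7 mitochondrial peaks in replicates 1, 2 and 3, where the fl H3K9ac list held 0. Groups of 3 libraries are too small for a check of single outlying samples.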

How the results depend on the processing

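Over 14 alternative settings, 264 values were recomputed for 24 results: 202 stayed within the error of the value reported (the 95% interval, or 1.5 times for a count) and 62 moved beyond it. In each of the 10 settings that bear on overlap, DEK regions of at least 2 libraries held H3K9ac more often than those of 1. With −log10 q of at least 5 in every list, regions with both fell to 213 and, for at least 2 DEK libraries, to 95. The share of H3K9ac regions with DEK was then 43.1% (19.2% for at least 2), that of DEK regions with H3K9ac 7.15%, and the median H3K9ac rank of regions with both 34.5%, in a list that had lost its weak peaks. With lists of equal length these shares were 18.0% and 6.52%, and 39.5% for DEK regions of at least 2 libraries. Leaving out each DEK library in turn gave 192 to 399 regions with both (85 to 124 for at least 2), 9.16% to 19.1% and 4.06% to 5.92% of H3K9ac regions with DEK, and 5.05% to 5.28% and 37.3% to 52.5% of DEK regions with H3K9ac. Widths of regions with both then ranged from 474 to 592 bp, H3K9ac ranks from 14.3% to 18.8% and gene-end shares from 2.55% to 4.17%. The lowest counts are those without replicate 3, the longest list. The gene-end share of regions with both was 11.5% with a 5 kb window and 1.67% at transcription starts only. With all entries kept, 3 list genes in place of 1 had a DEK-only region of at least 2 libraries. Leaving out the irregular entries, the midpoint rule and leaving out the start of chromosome 9 were chosen after seeing the data. No paired analysis was possible because the DEK and H3K9ac groups share fewer than 2 replicate numbers. Depth is unknown, and weak peaks limit what H3K9ac-only regions show.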
